A study of Mus musculus with 6 samples.

Results

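Genes of the extracellular matrix and the basement membrane were followed in lung RNA of endotoxaemic mice. They are 49 genes chosen by name: collagens, laminins, elastic fibre proteins, lysyl oxidases and matrix glycoproteins. The array carried probes for all 49, and 48 of the 16370 genes tested are among them. Each gene is read by its brightest probe, found through the transcript accession of the probe. The mice were male C57BL6, aged 10 weeks, starved for 16 h and injected i.p. with LPS at 20 mg per kg. They were given saline or rhTM (recombinant human thrombomodulin, the soluble form of an anticoagulant protein of the endothelial surface) at 3 h and 24 h, and lungs were collected 30 h after LPS. There were 3 saline-treated and 3 rhTM-treated mice with 1 array for each mouse. The comparison addresses which lung transcripts differed with rhTM after endotoxin. Lungs without LPS are not analysed here, so no value below says what LPS itself did to the matrix.

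The matrix gives the lung its shape and recoil. Fibrillar collagens bear tension, elastin stretches, and lysyl oxidases cross-link both. The basement membrane is a thin sheet under epithelium and endothelium, built from networks of type IV collagen and laminin that nidogen and perlecan tie together. In the lung most interstitial matrix is made by fibroblasts and smooth muscle cells, while endothelial and epithelial cells make much of their own basement membrane.

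A level is given as the log2 of the processed signal minus the 75th percentile of its array, so that 0 is that percentile and 1 unit is a doubling of signal. Levels are compared between arrays for the same gene, never between genes. The sources for the array identities differ. In the authors' value table saline replicate 1 and rhTM replicate 2 trade places relative to the scanner output, with 99.91% and 99.63% of probes equal within 0.1% to the array of the other name. The other 4 columns match their own arrays. Which assignment is right cannot be told from the labels, so results are given under the scanner assignment and then under the table assignment. On the array deposited as saline replicate 1 the slope of the spike-in controls, 0.826, lay outside the range set by the scanner software, whereas it was 1.07 to 1.09 on the others. That array and rhTM replicate 3 were on slide 2 and the other 4 on slide 1. With the table's assignment, slide 2 held rhTM arrays alone. Between 36002 and 40503 of 56605 probes were well above background on each array.

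None of the 48 genes passed an adjusted p of 0.05 under either assignment by limma (lmFit and eBayes, Benjamini-Hochberg adjustment over all genes). Over all genes the share called was 0% by both. Every member had an adjusted p of 0.9999 under the scanner assignment, and the lowest was 0.314 under the table assignment. At an unadjusted p under 0.05 the scanner assignment gave 3 members higher with rhTM (Frem1, Nid1 and Fn1), or 3 of 48 against 0.696% of all genes, and 0 members lower against 1.17%. The table assignment gave 3 others higher (Ntn4, Lum and Npnt) against 6.95%, and 2 lower (Efemp1 and Tnxb) against 7.01%. Under the thresholds of the methods, a fold past 2 or 0.5 with an unadjusted p under 0.01, the scanner assignment gave 0 members against 0.0367% of all genes, and the table assignment 0 against 0.398%. That count was 1 without rhTM replicate 1 under the scanner assignment (Eln, against 0.0489% of all genes) and 2 in the table with slide as a block (Tnc and Ogn, against 3.55%). Means were higher with rhTM for 27 of 48 members under the scanner assignment, with a median log2 difference of 0.02, where 50.7% of all genes were higher. They were higher for 18 of 48 under the table assignment, with a median of -0.19, against 46% of all genes. The median over all genes was 0.00 under the scanner assignment and -0.02 under the table assignment. The sign of the difference was opposite between the assignments, which share 4 of the 6 arrays, for 13 of the 48 members.

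The matrix genes were spread widely over the 3 rhTM arrays, and less widely once rhTM replicate 1 was left out. Under the scanner assignment the SD over the 3 rhTM arrays was larger than over the 3 saline arrays for 40 of 48 members, or 83.3%, against 66.1% of all genes. The median SD was 0.41 log2 units with rhTM and 0.20 with saline, against 0.22 and 0.16 over all genes. It was larger for 39 members under the table assignment, or 81.2%, against 70.8% of all genes. Without rhTM replicate 1, an array singled out by these same values, the rhTM SD is over 2 arrays and the saline SD over 3. The 2 are then not strictly comparable. The median SD under the scanner assignment was 0.20 with rhTM and 0.20 with saline (0.16 and 0.16 over all genes). The SD was larger with rhTM for 27 of 48 members (56.2%, against 50.7% of all genes). The table assignment then gave 24 of 48 (50%, against 39.4%). The array of rhTM replicate 1 was the lowest of the 6 for 32 members (66.7%, against 26.6% of all genes). It was the highest for 5 members, Col13a1, Lama5, Ntn4, Lum and Tnc (10.4%, against 29.8% of all genes). The array of rhTM replicate 3 was the highest for 18 (37.5%, against 14.9% of all genes). Both arrays are rhTM arrays under either assignment. In whole-lung RNA, fewer cells of a type and less RNA per cell cannot be told apart.

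**Figure D1:**
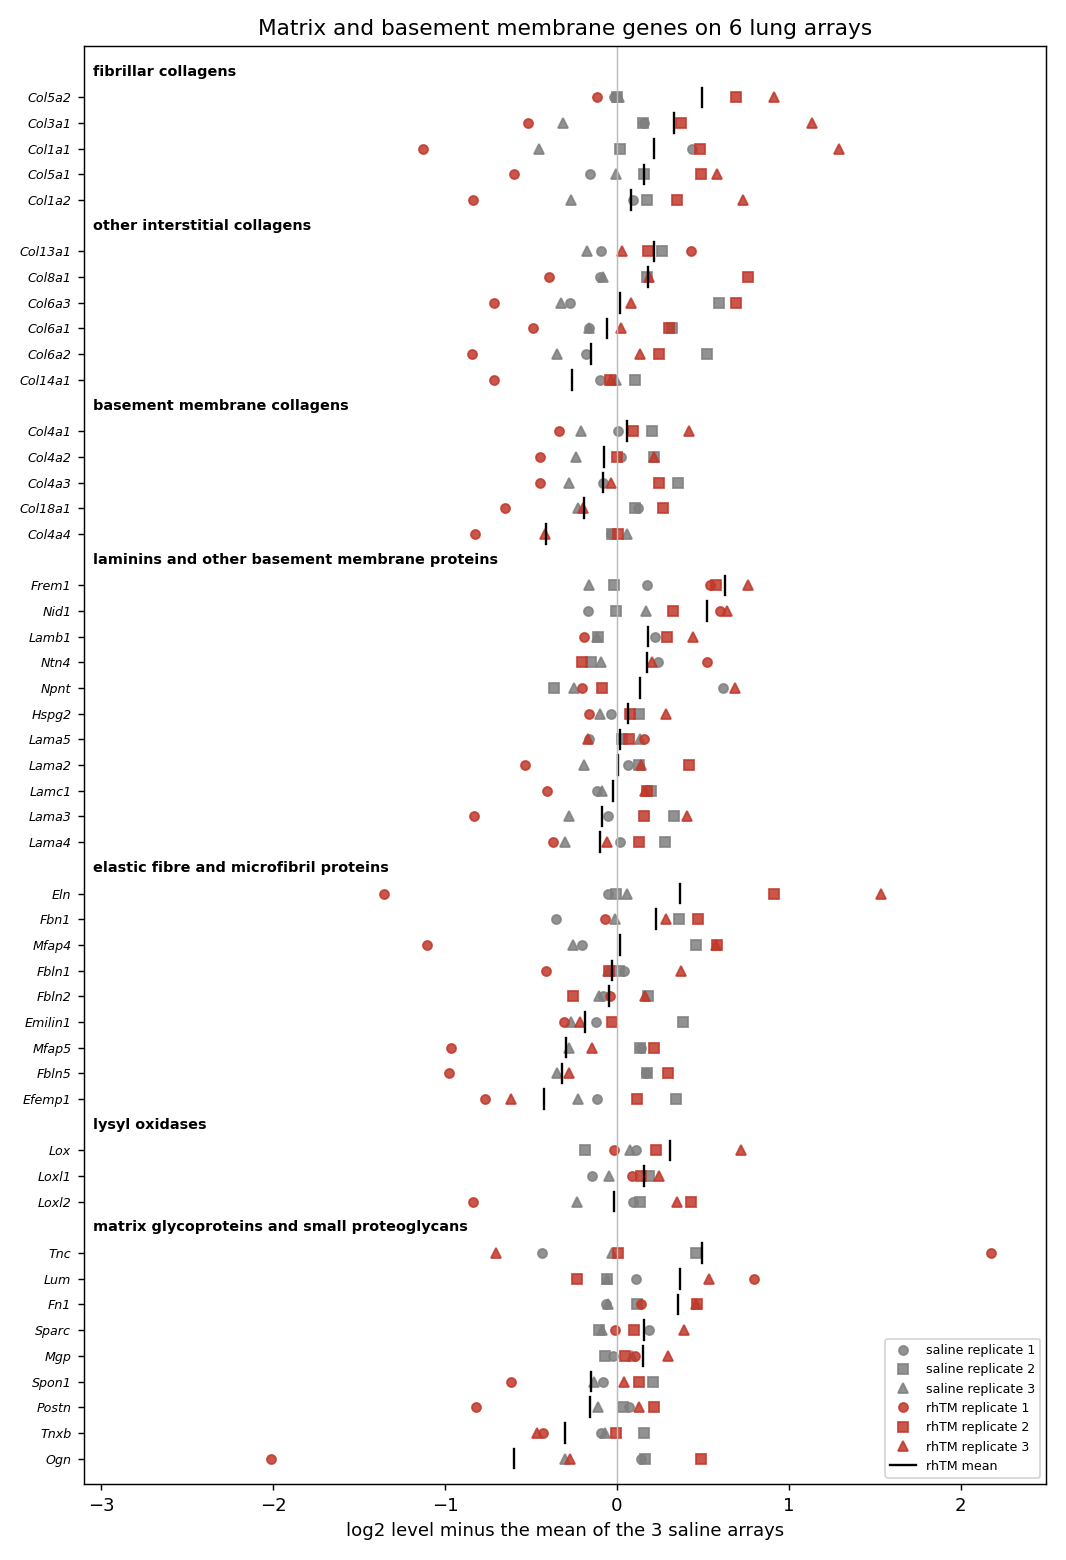
Each row is a gene and each symbol an array, under the scanner assignment, plotted as the log2 level minus the mean of the 3 saline arrays, with a bar at the rhTM mean. The circles of rhTM replicate 1 lie at the far left for most collagens and elastic fibre genes and were the lowest of the 6 arrays for 32 of 48 genes, while Frem1, Nid1 and Fn1 have all 3 rhTM symbols to the right of the saline ones.

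The 5 fibrillar collagens are the chains of types I, III and V, which co-assemble into the tension-bearing fibrils of airway and vessel walls. All 5 had a higher mean with rhTM under the scanner assignment, with a median log2 difference of 0.22. Only 3 did under the table assignment, with a median of 0.02, and Col1a2 and Col5a1 were lower. The saline and rhTM arrays overlapped for all 5. Promoter sequences are shown for a pair of them that share their order over the rhTM arrays, and later for Nid1 and Tnc, whose patterns differ from theirs. Each is the 250 bases before the start of the gene in RefSeq on GRCm38.p6, on the strand of the gene. Col1a2 (chr6:4505368-4505617, plus strand) and Col3a1 (chr1:45311288-45311537, plus strand) are written with CCAAT or TATAAA in capitals.
Col1a2: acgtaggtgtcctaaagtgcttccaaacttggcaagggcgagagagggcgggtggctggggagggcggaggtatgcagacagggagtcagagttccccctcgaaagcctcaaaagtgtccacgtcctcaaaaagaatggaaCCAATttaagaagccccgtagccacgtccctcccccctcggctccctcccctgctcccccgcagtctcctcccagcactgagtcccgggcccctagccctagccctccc
Col3a1: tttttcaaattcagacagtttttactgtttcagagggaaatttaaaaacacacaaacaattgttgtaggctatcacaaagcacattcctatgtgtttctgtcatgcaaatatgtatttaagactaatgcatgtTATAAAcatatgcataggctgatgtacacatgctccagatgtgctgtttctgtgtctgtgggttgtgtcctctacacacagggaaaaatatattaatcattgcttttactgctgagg
The CCAAT of Col1a2 began 109 bases before its start and the TATAAA of Col3a1 117 bases before its start.

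Col1a1, the main chain of type I collagen, read 3.68, 3.26 and 2.79 on saline replicates 1 to 3 and 2.11, 3.72 and 4.53 on rhTM replicates 1 to 3. The rhTM arrays hold both its lowest and its highest value, 5.36-fold apart. Means were 3.24 ± 0.45 and 3.45 ± 1.23 (SD, n = 3 each). The difference was 0.22 with an SE of 0.59 under the scanner assignment and 0.19 under the table assignment (limma adjusted p = 0.9999 and 0.899). Col3a1, the type III chain of stretchable tissues, read 3.67, 3.66 and 3.20 with saline and 3.00, 3.88 and 4.65 with rhTM, in the same order. Its difference was 0.33, with an SE of 0.40, and 0.19 under the table assignment.

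Col5a2, a chain of the type V collagen that starts fibrils, read -1.68, -1.66 and -1.65 with saline and -1.78, -0.97 and -0.74 with rhTM. Its saline values lay within 1.02-fold of each other, and rhTM replicates 2 and 3 were above all of them whereas rhTM replicate 1 was below. The difference was 0.50 (SE 0.26) under the scanner assignment and 0.02 under the table assignment. For Col1a2 and Col5a1 the differences were 0.08 and 0.16 under the scanner assignment and -0.09 and -0.27 under the table assignment. All 5 fibrillar collagens were below their own 6-array mean on rhTM replicate 1 and above it on rhTM replicates 2 and 3, with median deviations of -0.68, 0.37 and 0.69. On the saline arrays the medians were 0.00, -0.01 and -0.31.

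**Figure D2:**
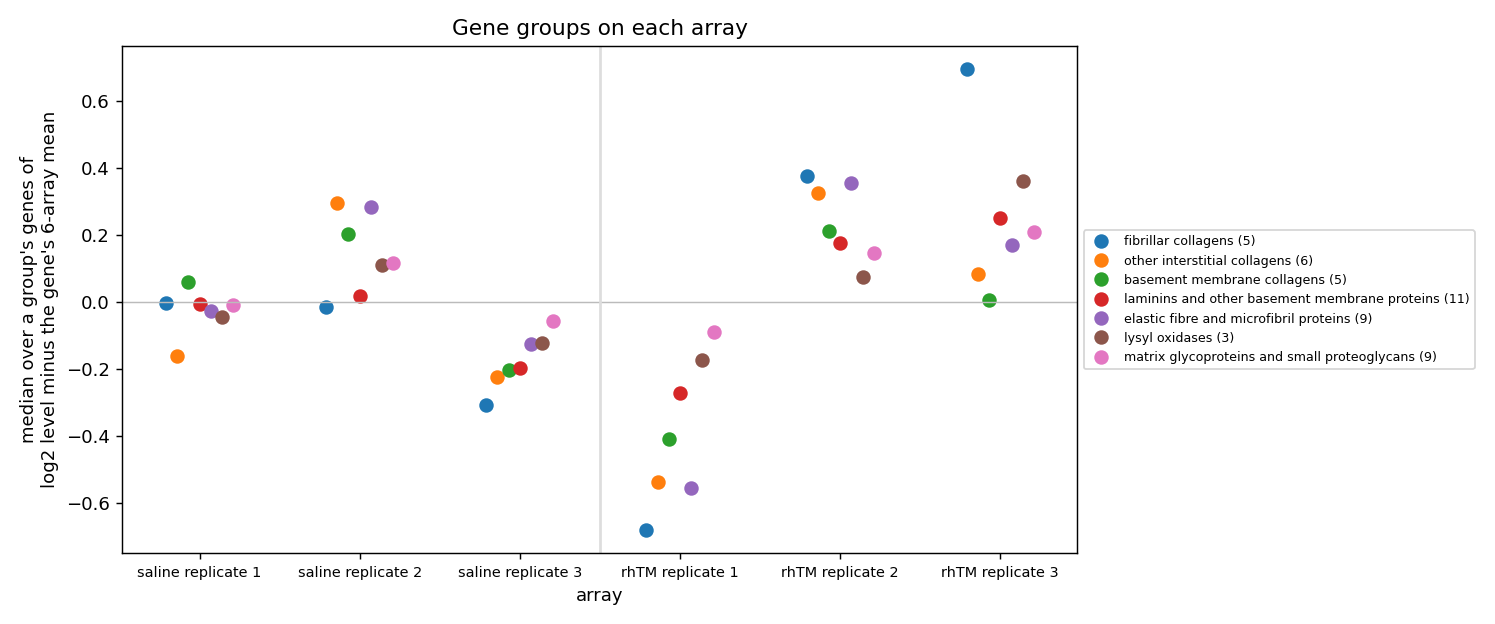
For each array the points give, for each of 7 gene groups under the scanner assignment, the median over its genes of the log2 level minus the gene's 6-array mean. All 7 groups lie below 0 on rhTM replicate 1 and above 0 on rhTM replicate 2, and the fibrillar collagens span the widest range, from -0.68 on rhTM replicate 1 to 0.69 on rhTM replicate 3.

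The 6 other interstitial collagens include the beaded filaments of type VI (Col6a1, Col6a2 and Col6a3), Col8a1 of vessel walls, the transmembrane Col13a1 and Col14a1, which coats fibrils. Under the scanner assignment 3 had a higher mean with rhTM and 3 a lower one, with a median of -0.02. In the table assignment 1 was higher and 5 lower, with a median of -0.38. Differences for Col6a1, Col6a2 and Col6a3 were -0.05, -0.15 and 0.02 under the scanner assignment, against -0.36, -0.44 and -0.62 under the table assignment. On the brightest probe the sign was thus opposite for Col6a3, and the values of the other type VI chains were further below 0 under the table assignment. The second probe of Col6a3 gave 0.15 under the scanner assignment and 0.25 under the table assignment. Col8a1 had a difference of 0.18 under the scanner assignment and -0.39 under the table assignment, and Col13a1 0.21 and 0.03. Col14a1 read -4.12, -3.92 and -4.03 with saline and -4.74, -4.06 and -4.06 with rhTM. It was low on rhTM replicate 1, and the other rhTM arrays lay among the saline ones. The difference was -0.26 (SE 0.21) and -0.30 under the table assignment.

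Basement membrane collagens comprise the ubiquitous type IV chains Col4a1 and Col4a2, the Col4a3 and Col4a4 chains of the alveolar membrane, and Col15a1 and Col18a1, which carry endostatin-like ends. Col15a1 was well above background on 2 saline arrays and 1 rhTM array and was not tested. Of the other 5, 1 had a higher mean with rhTM and 4 a lower one by both assignments, with medians of -0.08 and -0.29. Col4a1 read 5.05, 5.25 and 4.84 with saline and 4.71, 5.14 and 5.47 with rhTM. The groups overlapped, with a difference of 0.06 (SE 0.22) and 0.00 under the table assignment. Col4a2 had -0.08 and -0.06. In RefSeq the start sites of Col4a1 and Col4a2 lie 21 bases apart on opposite strands, and the genes share that promoter region.

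Col4a4 had the most negative difference of this group. It read 0.25, 0.26 and 0.35 with saline and -0.54, 0.29 and -0.13 with rhTM, so that rhTM replicates 1 and 3 were below every saline array and rhTM replicate 2 was not. Means were 0.29 ± 0.05 and -0.13 ± 0.42 (SD, n = 3 each), a difference of -0.41 with an SE of 0.21. Under the table assignment, where that array counts as saline, every rhTM array was below every saline array, the nearest pair at 0.255 and 0.256, and the difference was -0.44 (limma adjusted p = 0.38). Without rhTM replicate 1 the difference under the scanner assignment was -0.21, with overlapping groups. Its differences within slide 1 and within slide 2 were -0.43 and -0.39. The difference of Col4a3 was -0.08, and -0.29 under the table assignment, and that of Col18a1 was -0.19 and -0.29.

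Laminins and the proteins that bind them form 11 of the 48 genes. These are the laminin chains Lama2, Lama3, Lama4, Lama5, Lamb1 and Lamc1, nidogen (Nid1), perlecan (Hspg2), nephronectin (Npnt), Frem1 and netrin 4 (Ntn4). Under the scanner assignment 8 of 11 had a higher mean with rhTM and the median difference was 0.07. Under the table assignment 5 had, with a median of -0.01. This group contains 2 of the 3 members whose groups did not overlap under the scanner assignment. Over all 48 members, the 3 rhTM arrays lay wholly above the 3 saline arrays for 3, against 2.95% of all genes, and wholly below for 0, against 2.57%. They lay above for 2 (Ntn4 and Lum) under the table assignment, against 9.68%, and below for 2 (Col4a4 and Tnxb) against 12%.

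Frem1, a protein of the complex that anchors epithelial basement membrane, read -2.00, -2.20 and -2.34 with saline and -1.64, -1.61 and -1.42 with rhTM. All 3 rhTM arrays were above the highest saline array. Means were -2.18 ± 0.17 and -1.55 ± 0.12 (SD, n = 3 each), or 1.54-fold. The difference of 0.63 (SE 0.14) had an unadjusted p of 0.00298 and an adjusted p of 0.9999 by limma. An exact two-sided permutation test gave 0.1, the smallest value that 3 arrays against 3 allow, as it also did for Nid1 and Fn1. The difference of Frem1 was 0.65 within slide 1 and 0.59 within slide 2. The difference was 0.36 under the table assignment, with overlapping groups (adjusted p = 0.504 by limma).

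Nid1, the link between laminin and type IV collagen, read 3.07, 3.23 and 3.41 with saline and 3.84, 3.56 and 3.87 with rhTM, again with no overlap. Unlike the fibrillar collagens, it was high on rhTM replicate 1. Means were 3.24 ± 0.17 and 3.76 ± 0.17 (SD, n = 3 each), or 1.44-fold, and the difference was 0.52, with 0.58 on its second probe. By limma the unadjusted p was 0.0102 and the adjusted p 0.9999. The difference was 0.38 within slide 1 and 0.81 within slide 2, and 0.19 under the table assignment, where the groups overlapped. The promoter of Nid1 (chr13:13437352-13437601, plus strand) is shown with the reverse complement of CCAAT in capitals, 91 bases before the start.
Nid1: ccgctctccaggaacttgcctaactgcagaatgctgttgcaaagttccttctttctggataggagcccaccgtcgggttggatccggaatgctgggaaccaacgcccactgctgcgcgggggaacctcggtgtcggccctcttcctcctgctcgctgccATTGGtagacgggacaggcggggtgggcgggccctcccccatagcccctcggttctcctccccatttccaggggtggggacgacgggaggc

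Ntn4, a secreted netrin that binds laminin, read -3.19, -3.58 and -3.52 with saline and -2.90, -3.63 and -3.23 with rhTM. The groups overlapped under the scanner assignment, with a difference of 0.18 (SE 0.21), and of 0.002 without rhTM replicate 1. Under the table assignment all rhTM arrays were above all saline arrays and the difference was 0.47 (SE 0.12, limma adjusted p = 0.314). Npnt, an integrin ligand of alveolar epithelium, read 0.22, -0.77 and -0.65 with saline and -0.61, -0.49 and 0.29 with rhTM. It was high on both arrays of slide 2. Its difference was 0.13 under the scanner assignment, with 0.16 within slide 1 and 0.07 within slide 2, and 0.60 under the table assignment (limma adjusted p = 0.356), where both slide 2 arrays are rhTM. With slide as a block there, the value for Npnt was 0.03, which rests on rhTM replicate 1 as the only rhTM array compared with saline.

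Lama5, the chief laminin alpha chain of adult alveoli, read 4.16, 4.35 and 4.45 with saline and 4.48, 4.39 and 4.15 with rhTM. Its range over all 6 arrays was 1.25-fold, the narrowest of the 48 members, and the difference was 0.02 (SE 0.14) and -0.13 under the table assignment. Differences under the scanner assignment were 0.01 for Lama2, -0.09 for Lama3, -0.10 for Lama4, 0.18 for Lamb1, -0.02 for Lamc1 and 0.07 for Hspg2. The table assignment gave -0.23, -0.23, -0.17, 0.14, -0.22 and -0.01 in the same order. The probes of 4 of these genes differed in sign under the scanner assignment: Hspg2 from -0.14 to 0.07, Lama3 from -0.09 to 0.23, Lama4 from -0.10 to 0.10 and Lamc1 from -0.02 to 0.30. By the table those of Lama2 (-0.23 to 0.67) and Lamb1 (-0.27 to 0.14) did so too, and Lamc1 ran from -0.22 to 0.81. Of the 18 members with more than 1 probe kept by the background filter, the probes differed in sign for 6 under the scanner assignment and for 9 under the table assignment.

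Elastic fibre and microfibril genes, 9 in number, held some of the widest spreads. They are elastin (Eln), fibrillin 1 (Fbn1), the fibulins Fbln1, Fbln2, Fbln5 and Efemp1, the microfibril proteins Mfap4 and Mfap5, and Emilin1. All 9 were below their own 6-array mean on rhTM replicate 1. Under the scanner assignment 3 had a higher mean with rhTM and 6 a lower one (median -0.04). The table assignment gave 2 higher and 7 lower (median -0.32). Eln, the rubber-like core of the fibre, read 2.01, 2.06 and 2.12 with saline and 0.71, 2.98 and 3.60 with rhTM. The saline arrays agreed within 1.08-fold whereas the rhTM arrays spanned 7.42-fold, with rhTM replicate 1 below and the others above all saline arrays. Means were 2.06 ± 0.05 and 2.43 ± 1.52 (SD, n = 3 each). The difference was 0.36 (SE 0.68) under the scanner assignment and -0.28 under the table assignment.

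Efemp1, a fibulin of small vessels and fascia, read 2.42, 2.89 and 2.31 with saline and 1.78, 2.66 and 1.92 with rhTM. Replicates 1 and 3 of rhTM were below every saline array. The difference was -0.42 (SE 0.27) under the scanner assignment and -0.58 under the table assignment (limma adjusted p = 0.338), with overlap in both. Under the scanner assignment it was -0.64 on its second probe, and -0.25 on the brightest probe without rhTM replicate 1. Mfap5 read 1.85, 1.84 and 1.43 with saline and 0.74, 1.92 and 1.56 with rhTM, and its difference was -0.30 (SE 0.31), or -0.34 under the table assignment. It was below all other arrays on rhTM replicate 1, and without that array the difference was 0.04 under the scanner assignment. Differences for Fbn1, Fbln1, Fbln2, Fbln5, Mfap4 and Emilin1 ran from -0.32 for Fbln5 to 0.23 for Fbn1 under the scanner assignment and from -0.50 for Mfap4 to 0.07 for Fbln2 under the table assignment.

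The lysyl oxidases Lox, Loxl1 and Loxl2 cross-link collagen and elastin. Lox read 3.58, 3.28 and 3.54 with saline and 3.45, 3.69 and 4.19 with rhTM, where rhTM replicates 2 and 3 were above all saline arrays. Its difference was 0.31 (SE 0.21) and 0.23 under the table assignment. For Loxl1 and Loxl2 the differences were 0.16 and -0.02 under the scanner assignment and -0.03 and -0.24 under the table assignment. The probes of Loxl2 ran from -0.02 to 0.04.

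Matrix glycoproteins and small proteoglycans were divided, with 5 of 9 higher by either assignment and medians of 0.15 and 0.00. Fn1, fibronectin, an adhesive protein of plasma and early wound matrix, read 4.29, 4.47 and 4.30 with saline and 4.50, 4.82 and 4.82 with rhTM. All rhTM arrays were above all saline arrays, although rhTM replicate 1 was close to the highest saline array. Means were 4.36 ± 0.10 and 4.71 ± 0.19 (SD, n = 3 each), or 1.28-fold. By limma the difference of 0.36 (SE 0.14) had an unadjusted p of 0.039 and an adjusted p of 0.9999. The unadjusted p stayed under 0.05 in 6 of 18 planned settings with a test, against 16 of 18 for Nid1 and 16 of 17 for Frem1. It was 0.0881 with quantile normalization and 0.278 for the mean of the probes. The log2 difference of Fn1 was 0.27 within slide 1 and 0.52 within slide 2. The value under the table assignment was 0.00, and the probes of Fn1 ran from -0.07 to 0.36 under the scanner assignment.

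Lum, lumican, a small proteoglycan that spaces collagen fibrils, read -1.78, -1.95 and -1.95 with saline and -1.10, -2.13 and -1.36 with rhTM. Replicate 2 of rhTM was the lowest of all arrays and the other rhTM arrays were above every saline array. The difference was 0.37 (SE 0.26), and under the table assignment 0.60 (SE 0.18, limma adjusted p = 0.314) without overlap. Without rhTM replicate 1 the difference of Lum was 0.15 under the scanner assignment. Ogn, osteoglycin, a proteoglycan of the same family, read 2.44, 2.47 and 2.00 with saline and 0.29, 2.79 and 2.03 with rhTM. Its level on rhTM replicate 1 stood far below the other 5 arrays, and the rhTM arrays spanned 5.67-fold. The difference was -0.60 (SE 0.59) and -0.83 under the table assignment. Without rhTM replicate 1 its direction turned, to 0.11 under the scanner assignment.

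Tnxb, tenascin X, a glycoprotein of collagenous tissue, read 1.38, 1.63 and 1.40 with saline and 1.04, 1.46 and 1.00 with rhTM. As with Col4a4, rhTM replicate 2 lay among the saline arrays and the other rhTM arrays below them. The difference was -0.30 (SE 0.17) under the scanner assignment and -0.36 (SE 0.14, limma adjusted p = 0.343) under the table assignment, where the groups did not overlap. It was -0.26 within slide 1 and -0.38 within slide 2. For Mgp, Sparc, Postn and Spon1 the differences were 0.15, 0.16, -0.16 and -0.15 under the scanner assignment and 0.10, 0.22, -0.25 and -0.29 under the table assignment. Mgp, an inhibitor of calcification, and Sparc, a collagen-binding protein, were higher with rhTM by both on their brightest probes. The second probe of Sparc gave 0.28 under the scanner assignment and -0.05 under the table assignment.

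Tnc, tenascin C, a matrix glycoprotein known from injured tissue, was chosen for its values after they were seen. It read -5.50, -4.60 and -5.09 with saline and -2.88, -5.05 and -5.76 with rhTM. A high value on rhTM replicate 1, the array on which most collagens were lowest, set it apart from them. On rhTM replicate 3 it was not well above background, so its lowest value is only a bound and the differences that use it are approximate. Its difference was 0.49 (SE 0.70), 0.28 with normexp background correction, and 0.20 under the table assignment. Without rhTM replicate 1 it turned, to -0.35 under the scanner assignment. Its promoter (chr4:64047016-64047265, minus strand) is shown with TATAAA in capitals, 126 bases before the start.
Tnc: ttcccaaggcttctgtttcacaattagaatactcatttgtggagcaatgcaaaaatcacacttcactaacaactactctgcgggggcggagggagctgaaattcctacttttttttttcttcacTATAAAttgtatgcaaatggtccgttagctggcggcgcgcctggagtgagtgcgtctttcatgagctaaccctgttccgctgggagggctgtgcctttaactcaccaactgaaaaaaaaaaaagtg

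Of the 49 members, 32 had a promoter in the RefSeq table. Among these 250-base windows, TATAAA (or TTTATA for the other strand) was found in 5, or 15.6%, against 14.3% of 27025 genes. CCAAT (or ATTGG) was found in 7, or 21.9%, against 37.5%. CAGAC (or GTCTG), the letters of a SMAD-binding element, was found in 19, or 59.4%, against 45.8%. These are matches of letters in a window and do not show binding.

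**Figure D3:**
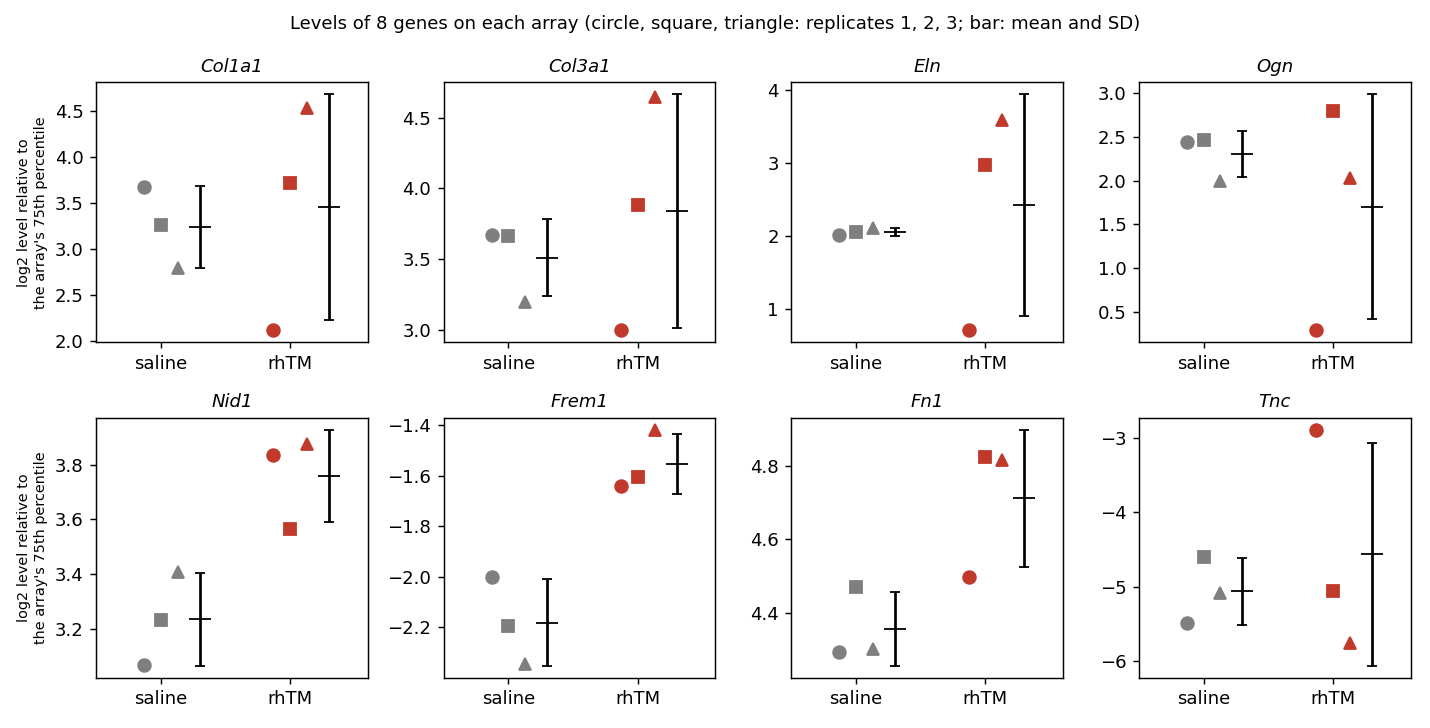
Each panel shows a gene under the scanner assignment, with the log2 level relative to the 75th percentile of the array on its own vertical axis, 3 saline (grey) and 3 rhTM (red) arrays, and the mean with SD. Col1a1, Col3a1, Eln and Ogn are low on rhTM replicate 1, Tnc is high on it, and Nid1, Frem1 and Fn1 have all rhTM arrays above the saline arrays.

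Because rhTM replicate 1 was low for most members, each result was also computed without it, as was done for every array in turn. The array was singled out by these same values, so what follows is a description. The count of members with a higher mean then went from 27 to 40 of 48, where 50.1% of all genes were higher, and the median difference from 0.02 to 0.18. At an unadjusted p under 0.05, 10 members were then higher, against 0.819% of all genes: Eln (1.22), Col1a1 (0.89), Col5a2 (0.81), Col3a1 (0.75), Frem1 (0.67), Col1a2 (0.54), Col5a1 (0.54), Nid1 (0.48), Fn1 (0.46) and Loxl2 (0.39), all in log2 units. For 16 members both remaining rhTM arrays were above every saline array, against 5.86% of all genes. The lowest adjusted p of a member by limma was then 0.9998. These counts did not hold under the table assignment. Without rhTM replicate 1 that assignment sets 2 rhTM arrays on slide 2 against 3 saline arrays on slide 1, so that slide and treatment cannot be told apart. There 24 of 48 were higher, against 44.3% of all genes, with a median of -0.01. In that fit 4 members were higher at an unadjusted p under 0.05 (Npnt, Ntn4, Lum and Sparc), against 11.3% of all genes, and 2 lower (Lama5 and Tnc), against 14%. Eln then had 0.42, Col1a1 0.85, Col3a1 0.58, Frem1 0.34, Nid1 0.07 and Fn1 0.02, all with overlapping groups. Npnt alone passed the adjusted threshold by limma (0.89, adjusted p = 0.0196), 1 of 48 members against 3.44% of all genes, and it was high on both slide 2 arrays. Under the scanner assignment without rhTM replicate 3, 16 of 48 had a higher mean, against 51.6% of all genes, and the median was -0.12. By slide, 18 of 48 were higher within slide 1, which holds rhTM replicates 1 and 2, against 50.2%, with a median of -0.13. Within slide 2, with 1 array of each group, 36 were higher, against 49.3%, and the median was 0.25. Without saline replicate 1, whose spike-in slope was out of range, 25 of 48 were higher, against 48.9%, with a median of 0.03.

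Since slide 2 holds rhTM arrays alone under the table assignment, with slide as a block the comparison becomes rhTM replicate 1 against the 3 saline arrays. There 2 members passed an adjusted p of 0.05 by limma as higher, against 1.15% of all genes, and 2 as lower, against 1.5%. The former were Tnc (2.03, adjusted p = 0.0338) and Ntn4 (0.67, adjusted p = 0.0457). The latter were Ogn (-2.13, adjusted p = 0.0436) and Col14a1 (-0.73, adjusted p = 0.0439). The calls of this fit rest on 1 rhTM array. At an unadjusted p under 0.05 it gave 3 members higher, against 13.9% of all genes, and 23 lower, against 14.1%. Without both exchanged arrays, 4 were higher, against 4.01%, and 3 lower, against 3.46%. Over the planned settings, which reuse the same arrays, 12 of 48 members kept their sign in every one. The share over all genes was not computed. The 12 were Col5a2, Col13a1, Lox, Lum, Mgp, Sparc, Lamb1, Nid1 and Frem1, higher with rhTM, and Col4a4, Tnxb and Efemp1, lower.

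**Figure D4:**
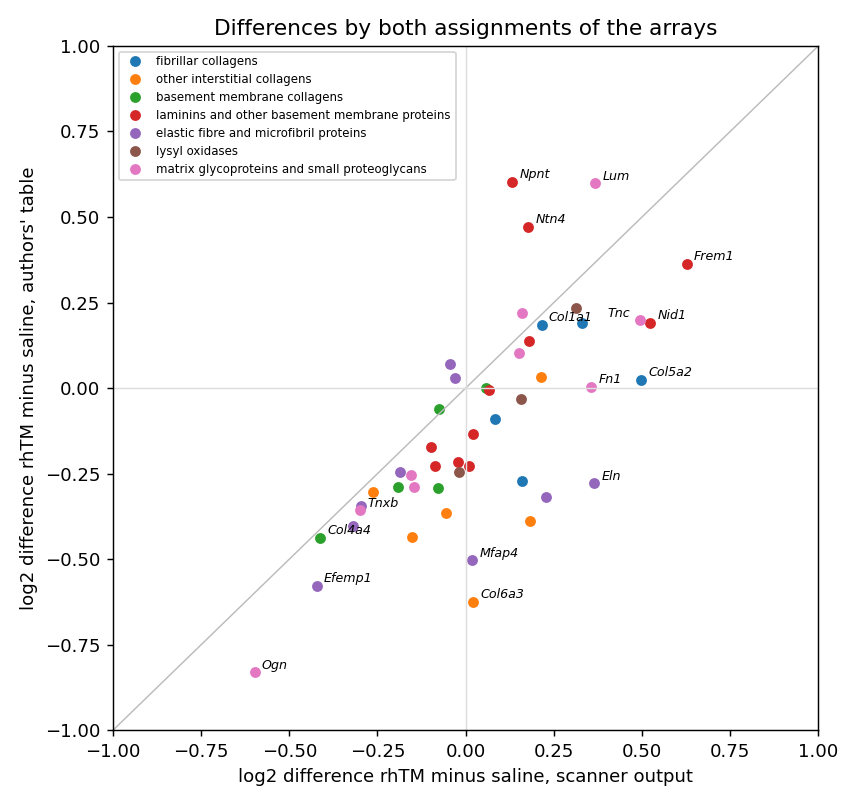
Each point is a gene, with the log2 difference of rhTM minus saline under the scanner assignment on the horizontal axis and under the table assignment on the vertical axis, coloured by gene group; the assignments share 4 of 6 arrays. Most points lie below the diagonal, and 13 of 48 genes have opposite signs, among them Eln, which has 0.36 and -0.28.

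Genes that process, bind or accompany the members were counted in lists chosen by function. Of the enzymes and chaperones of collagen synthesis, 27 of 29 were tested. With rhTM 10 were higher and 17 lower under the scanner assignment, with 0 at an unadjusted p under 0.05 and a median of -0.04. The lowest p in each direction belonged to Ppib, a prolyl isomerase of collagen folding (0.19), and Loxl4, a lysyl oxidase (-0.61). Under the table assignment 7 were higher and 20 lower, 1 and 3 of them at an unadjusted p under 0.05 (against 6.95% and 7.01% of all genes, as for the lists that follow), with a median of -0.12, led by P3h1 (0.91) and Colgalt2 (-0.44), which modify collagen chains.

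Matrix receptors, the integrins, discoidin receptors and others, showed 12 higher and 10 lower of 22 tested, with a median of 0.00. None was at an unadjusted p under 0.05, and Itga6, a laminin receptor chain, had 0.28 and Bcam, which binds Lama5, -0.41. With the table assignment 8 were higher and 14 lower, with 0 and 3 at an unadjusted p under 0.05 and a median of -0.11. Its leading genes were Itgav (0.19) and the collagen uptake receptor Mrc2 (-0.56). Of 82 other matrix genes, 62 were tested, with 25 higher and 37 lower under the scanner assignment and a median of -0.03. Smoc2, a calcium-binding matrix protein (0.31), was the only one of them at an unadjusted p under 0.05 by limma. Of all genes 0.696% were higher and 1.17% lower at that threshold. Ntn1 led the lower side (-0.30). The groups did not overlap for 3 higher genes, Smoc2 among them (against 2.95% of all genes), and 1 lower gene, Ntn1 (against 2.57%). With the table assignment 22 were higher and 40 lower, 5 and 4 of them at an unadjusted p under 0.05, with a median of -0.12. Podn, a small leucine-rich proteoglycan, read 2.08, 2.13 and 1.53 on the arrays called saline there and 0.74, 1.01 and 0.61 on those called rhTM, and its difference of -1.12 had an adjusted p of 0.314 by limma. Col26a1 led the higher side (0.67).

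Cells that make matrix were compared through markers that are no members. Summed levels are in multiples of the 75th percentile of each array. All 10 fibroblast markers were tested, with 4 higher and 6 lower under the scanner assignment, and their summed level was 32.8 to 34.4 with saline and 35.4 to 39.3 with rhTM (33.2 to 35.4 and 32.8 to 39.3 under the table assignment, with 3 higher and 7 lower). The median deviation of these markers was -0.20 on rhTM replicate 1 and 0.15 and 0.19 on rhTM replicates 2 and 3, while their sum on rhTM replicate 1, 38.8, was above that of every saline array. For 10 smooth muscle and pericyte markers, 6 higher and 4 lower, the sum was 50.6 to 88.3 with saline and 54.6 to 91.4 with rhTM (50.6 to 59.6 and 54.6 to 91.4 under the table assignment, with 6 higher and 4 lower). The high values, 88.3 and 91.4, were both on slide 2, and both count as rhTM under the table assignment, and the median deviations on rhTM replicates 1 to 3 were -0.19, 0.04 and 0.35. For 6 mesothelial markers, which come from the pleural surface, all 6 were lower with rhTM by both assignments. Of these, 2 were at an unadjusted p under 0.05 under the scanner assignment (against 1.17% of all genes) and 5 under the table assignment (against 7.01%), and the medians were -0.54 and -0.62. Their sum was 46.4 to 72.5 with saline and 34.7 to 51.1 with rhTM, and 50.6 to 72.5 and 34.7 to 46.4 under the table assignment. For 10 endothelial markers, 5 higher and 5 lower with a median of 0.02 under the scanner assignment, the sum was 382 to 421 with saline and 369 to 407 with rhTM. With the other assignment 3 were higher and 7 lower with a median of -0.19, and the sums were 382 to 410 and 369 to 421. There 3 endothelial markers were lower at an unadjusted p under 0.05 by limma, against 7.01% of all genes. For 3 every rhTM array was below every saline array, against 12% of all genes. The median deviation on rhTM replicate 1 was -0.17 for endothelial, -0.53 for mesothelial, -0.38 for adipose and -0.32 for alveolar type 2 markers. It was above 0 for airway (0.18), neutrophil (0.13), cardiac muscle (0.14), alveolar type 1 (0.04) and erythroid markers (0.92). Of 6 cartilage markers 3 were well above background on no array and 2 were tested, 1 higher and 1 lower by both assignments, and their median deviations were -0.70 on rhTM replicate 1 and 0.89 on rhTM replicate 3. All 5 alveolar type 1 markers on the array and all 6 type 2 markers were tested, so that the defining genes of lung epithelium were measured. The part of these cell types in the values of the matrix genes was not tested.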

How the data were processed

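Lung RNA was hybridised to Agilent SurePrint G3 Mouse arrays in a single colour (Cy3). For every array the authors deposited scanner output with background-corrected, unlogged intensity per spot (Feature Extraction 10.7.3.1 by the file header, 9.1 by the submitters' processing notes), and a table of the same intensity values. In that table saline replicate 1 and rhTM replicate 2 trade places. Samples were grouped by their labels.

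From the deposited intensity, outlier-flagged spots were left out, spots of a probe averaged, and the 75th percentile of each array subtracted on the log2 scale. Accessions of 32994 of 56605 probes matched a RefSeq table (GRCm38.p6), giving 22911 genes. Because the array design was annotated on mm9, probe coordinates were not used. Probes had to be well above background on every array of the saline group, the rhTM group or both, and the brightest probe stood for its gene. Groups were compared with limma 3.58.1 in R 4.3.3 over all 16370 genes, with adjusted p under 0.05. The exact permutation test cannot go below 0.1.

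The members, gene lists and settings were chosen with earlier results of these data known. All members are named. Values by array are given for the 6 with the smallest p in each direction, members without overlap in either source, and Col1a1, Col3a1, Col4a1, Eln, Fn1 and Lama5. Npnt and Tnc were chosen after values were seen. From each list of other genes, the gene with the smallest p in each direction is named. Alternatives were the authors' table, normexp background correction with an offset of 50, other scalings and filters, other probe rules, slide, replicate block, leaving out each array, and the methods' t-test. A further 5 (the table with slide or replicate block, within slide 1 and without each array, and the scanner output less both exchanged arrays) were added after seeing the data. The fit was tested on simulated data. The number of arrays limits the precision.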

Additional observations from a re-analysis of the deposited data

How the results depend on the processing

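The count of members past the adjusted threshold by limma was 0 in every planned setting that gives a test, and the methods' t-test gave 0 after adjustment and 3 before it. It was 4 under the table assignment with slide as a block, and 0 to 1 over the table fits that left out an array, where Npnt passed without rhTM replicate 1, against 3.44% of all genes, in a fit where slide and treatment cannot be told apart. The number at an unadjusted p under 0.05 was 3 by the scanner output (1.87% of all genes), 5 by the table (14%), 0 of 18 for second brightest probes (1.85%), 26 in the table with slide as a block (28.1%) and 7 without both exchanged arrays (7.46%). It was 2, without Fn1, with quantile normalization, the percentile of bright probes, no scaling, no filter or the mean of probes. Leaving out each array gave 2 to 10 by the scanner output, with 10 without rhTM replicate 1 (1.72% of all genes) and 6 without rhTM replicate 2 (8.42%), and 2 to 6 by the table (7.02% to 25.3%). By the scanner output, 16 to 40 members had a higher mean over the arrays left out (48.9% to 53.7% of all genes), against 27. By the table the number was 10 to 24 (44.3% to 48.3%), against 18. It was 14 of 18 for second brightest probes (50.7%) and 20 without both exchanged arrays (48.4%). The median difference ranged from -0.12 to 0.18 by the scanner output and from -0.31 to -0.01 by the table over the arrays left out. In the table, 11 members were higher with a median of -0.48 with slide as a block and within slide 1, 12 were higher without saline replicate 3 and 10 without rhTM replicate 3. With no scaling between arrays, 23 members were higher, against 42.6% of all genes, and the median was -0.01. The labels do not say whether replicate numbers pair the mice. Deviations from the group means correlated at -0.30, 0.44 and -0.45 between arrays of the same number. The fit with the replicate block gave 27 higher, a median of 0.02 and 0 called. Differences reversed for Fn1 on its second brightest probe (-0.065), in the table with slide as a block (-0.035) and in the table without saline replicate 2 (-0.027), saline replicate 3 (-0.11) or rhTM replicate 3 (-0.14). They reversed for Npnt without saline replicate 2 (-0.05) and without rhTM replicate 3 (-0.15). In all, 36 of 48 members changed sign in a planned setting, and the share over all genes was not computed. Among the 36 were Mfap4 in 9 of 19 settings, Lama5 in 8 of 19, Col6a3 and Lama2 in 8 of 20 and Loxl2 in 7 of 20. For these values the cause was not tested. Dim genes such as Col15a1 and Tnc are limited by their signal over background.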

Other observations

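Other cell types were read through markers that are no members, as summed levels in multiples of the 75th percentile of each array. For 6 airway markers the sum was 630 to 795 with saline and 569 to 838 with rhTM under the scanner assignment, with 4 higher and 2 lower. Under the table assignment, all 6 were higher with rhTM, 4 of them at an unadjusted p under 0.05 (against 6.95% of all genes higher and 7.01% lower, and 0.696% and 1.17% under the scanner assignment, as for the markers that follow), and the sums were 569 to 686 and 748 to 838. Of 5 neutrophil markers on the array, 4 were higher and 1 lower by both assignments, with medians of 0.10 and 0.23 and sums of 768 to 932 with saline and 781 to 1003 with rhTM under the scanner assignment, and of 768 to 870 and 926 to 1003 under the table assignment, where 2 were at an unadjusted p under 0.05. The 6 alveolar type 2 markers were all lower under the scanner assignment, with a median of -0.12, whereas 4 were higher under the table assignment, with a median of 0.12. Of 5 alveolar type 1 markers, 1 was higher and 4 lower by both, with medians of -0.17 and -0.05.

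For 6 macrophage markers 3 were higher and 3 lower under the scanner assignment (median -0.02), and 1 was higher and 5 lower under the table assignment (-0.18). For 6 T and B cell markers 4 were higher and 2 lower under the scanner assignment (0.07), whereas 2 were higher and 4 lower under the table assignment (-0.36). There 2 were lower at an unadjusted p under 0.05 by limma, against 7.01% of all genes. For 2 every rhTM array was below every saline array, against 12% of all genes. For 6 cardiac muscle markers 1 was higher and 5 lower (-0.32), against 5 higher and 1 lower (0.22) under the table assignment. All 5 adipose markers were lower under the scanner assignment (-0.16), 1 of them at an unadjusted p under 0.05, and 2 were higher and 3 lower under the table assignment (-0.07), with 0 at an unadjusted p under 0.05 by limma. Of 5 erythroid markers 2 were tested and both were higher by both assignments (0.25 and 0.39), 1 of them at an unadjusted p under 0.05 under the table assignment, with a summed level of 8.81 on rhTM replicate 1 and 2.67 to 4.67 on the other 5 arrays.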
